A study of Mus musculus with 23 samples.

Results

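The comparison is the crossed pairing of a mouse model known as FCG, XX animals with testes (XXM) against XY animals with ovaries (XYF), in which the sex chromosomes and the gonads differ at the same time. It uses 12 of the 23 hippocampus libraries of the series, 6 XXM and 6 XYF, each from a different animal, taken by the sex chromosome and gonad that the labels give. In FCG mice the testis-determining gene Sry has been lost from the Y chromosome and supplied as an autosomal transgene. XXM animals therefore carry 2 X chromosomes, no Y chromosome and the transgene, and XYF animals carry an X chromosome and a Y chromosome that lacks Sry, without the transgene. The remaining groups are XX with ovaries (XXF, n = 5) and XY with testes (XYM, n = 6), and XYM animals hold both the Y chromosome without Sry and the transgene. All animals were on a C57Bl/6J background, came from stock revived from frozen embryos and were about 12 months old. They received no treatment named in the labels. Weaned pups were caged by the look of their genitalia, so gonad and type of cage cannot be told apart, and neither can gonad and sex chromosomes within this comparison. Litter and cage were not used here.

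The largest group of genes in the comparison belongs to the interferon response. Interferons are signalling proteins that cells release on sensing viral nucleic acid. They act through surface receptors and Janus kinases on transcription factors, which bind a promoter sequence called the interferon-stimulated response element. The genes switched on in this way encode antiviral effectors, GTPases that attack pathogen vacuoles, and the parts that load peptides onto MHC class I. In brain tissue microglia, astrocytes, endothelium and neurons can all respond to interferon.

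Library totals over the genes of the table ran from 21143397 to 32393132 estimated counts in XXM and from 11548107 to 25636174 in XYF, so XXM libraries were on the whole deeper. The labels were checked on Xist, the RNA that coats an inactive X chromosome, and on 4 Y-linked genes. Xist was between 936 and 1439 CPM (the count scaled by its library's total) in XXM. In XYF it was at most 2.79 CPM in 5 libraries, and XYF replicate 4 held 94.1 CPM. Ddx3y, Eif2s3y, Kdm5d and Uty were at most 0.437, 0.0730, 0.0672 and 0.174 CPM in any XXM library and at least 49.2, 34.9, 22.5 and 12.8 CPM in every XYF library, replicate 4 included. The 15 marker genes of hippocampal neurons were all in the table, with a summed level of 1421 to 1595 CPM in XXM and 1334 to 1619 CPM in XYF, and 0 of them passed the test described next.

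The libraries also differed in choroid plexus RNA. Ttr, which encodes transthyretin, the transport protein that choroid plexus epithelium secretes into the cerebrospinal fluid, was at 1814, 82.4, 2010.2, 2220.1, 1668 and 86.5 CPM in XXM replicates 1 to 6. In XYF replicates 1 to 6 it was at 36.3, 43.2, 48.9, 145, 2927 and 64.5 CPM. Ttr thus exceeded 500 CPM in 4 of 6 XXM libraries, 1 of 6 XYF, 1 of 5 XXF and 1 of 6 XYM, with no XXM or XYF library between 145 and 1668 CPM. On log2 CPM the XXM mean was higher by 2.58, and an exact 2-sided permutation test over every assignment of the 12 libraries gave p = 0.0996. On CPM the difference of 769 had an exact permutation p = 0.212. The other choroid plexus genes followed the same libraries: Enpp2, a secreted lysophospholipase, was between 1579 and 2281 CPM in the 4 Ttr-high XXM libraries and at 2432 CPM in XYF replicate 5. Kl, the anti-ageing hormone co-receptor klotho, was between 114 and 188 CPM in those XXM libraries and at 192 CPM in XYF replicate 5, against at most 33.6 CPM in any other library of these groups. All 13 choroid plexus genes in the table, of 17 in the list, had a positive log2 fold change (median 1.16, from 0.78 for Otx2 to 1.61 for Sostdc1). None of the 13 passed the test (smallest edgeR adjusted p 0.488, for Sostdc1). Their summed level ran from 455 to 5105 CPM in XXM and from 339.9 to 6199 CPM in XYF.

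**Figure D1:**
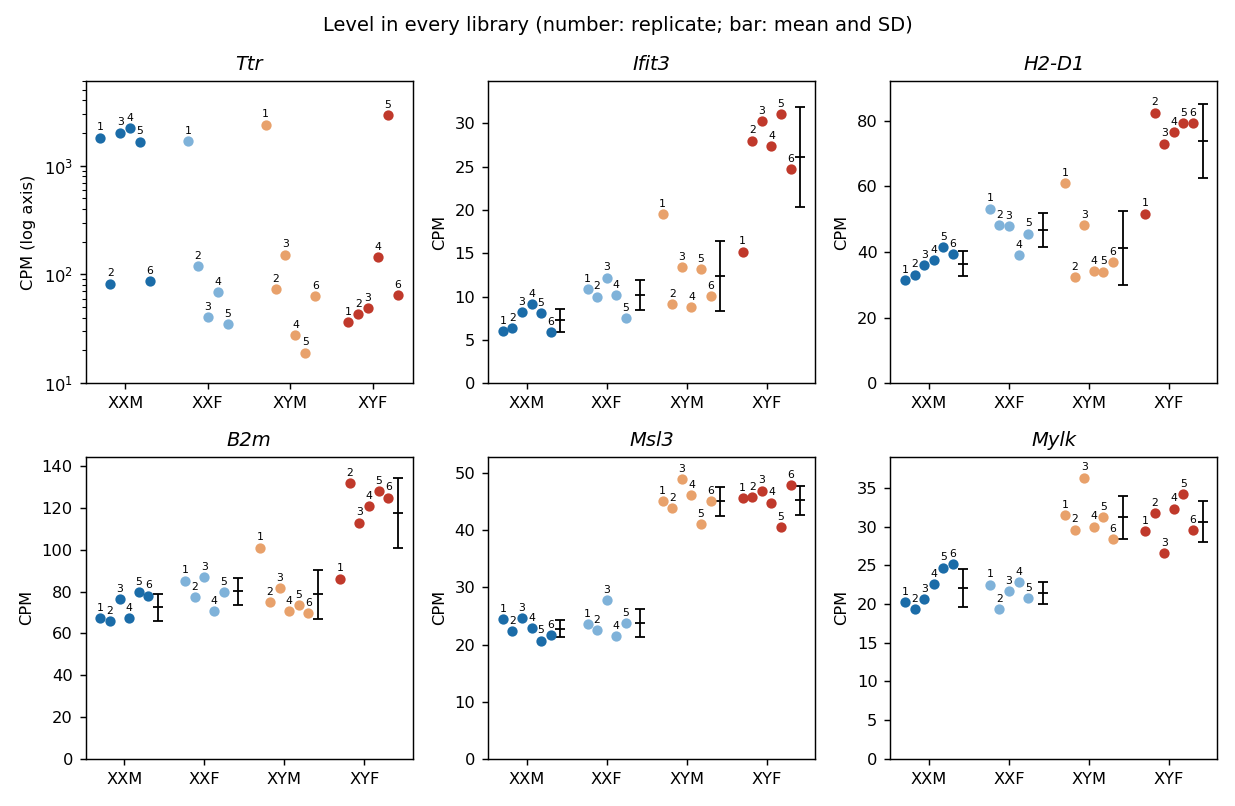
Level of 6 genes in every library (CPM, vertical axis, logarithmic for Ttr and linear from 0 for the rest) by group, with the replicate number above each point and the group mean and SD as a bar, except for Ttr. Ttr is high in XXM replicates 1, 3, 4 and 5 and in XYF replicate 5, while Ifit3, H2-D1 and B2m are higher in every XYF library than in any XXM library, and Msl3 and Mylk separate XY from XX libraries.

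Each gene was tested with edgeR's quasi-likelihood test on the counts of all 23 libraries, and p-values were adjusted by Benjamini and Hochberg's method over 13766 genes, with a call at an adjusted p under 0.05. Between XXM and XYF 69 genes were called (0.501% of the genes tested), 63 lower and 6 higher in XXM. On the autosomes 51 of 13275 genes were called lower (0.384%) and 1 higher, 0.392% in all. On the X chromosome 13 of 486 were called (2.67%), 8 lower and 5 higher, and on the Y chromosome the 4 genes of the label check. At an unadjusted p under 0.05 there were 1377 genes, and the median log2 fold change over all genes was -0.01. Log2 fold changes are XXM minus XYF throughout unless another comparison is named, so a negative value is a lower level in XXM. Their standard errors (SE) are approximate. The table itself was filtered by group: a gene was kept if its raw value reached 20 in every library of any 1 group. Of the 51 autosomal genes called lower, 42 passed that filter in both groups and 8 through XYF alone. H2-Q5 passed in neither XXM nor XYF. Passing through XYF alone favours a higher level in XYF, so the direction of these 8 is no finding. The 8 are Usp18, Oas2, Nlrc5, H2-Q7, Ifi27l2a, Gbp10, Ddx60 and Isg20.

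**Figure D2:**
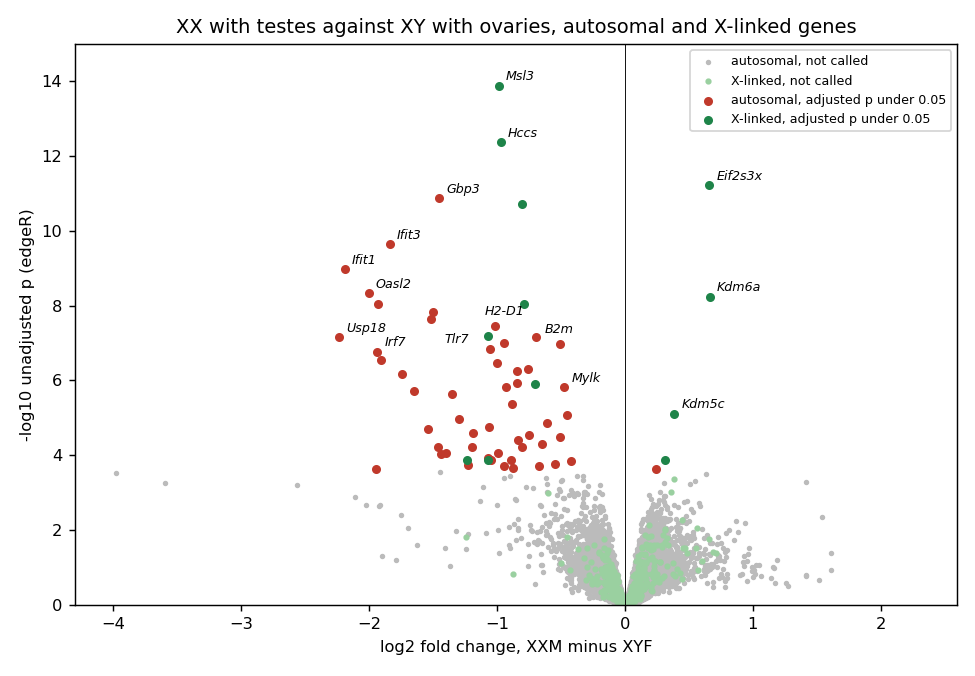
Log2 fold change, XXM minus XYF (horizontal axis), against the negative log10 of the unadjusted edgeR p (vertical axis) for autosomal and X-linked genes, with coloured points for the genes called. Xist and the Y-linked genes lie outside the axes and are not drawn; 51 of the 52 autosomal genes called are on the left, lower in XXM.

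Antiviral effectors made up the largest named group. All 23 interferon-stimulated effector genes in the table, of 26 in the list, had a lower level in XXM (median log2 fold change -0.83), and 12 of the 23 were called, against 0.384% of autosomal genes called lower. The list's summed level was between 121 and 172 CPM in XXM and between 197 and 352 CPM in XYF. Libraries of the groups did not overlap for 11 of the 23 (0.460% of autosomal genes had every XXM library below every XYF library). The groups overlapped for Parp14, Ifitm3, Oas2 and Trim30a among those called. Usp18 and Oas2, among the 12 called, passed the filter by group through XYF alone, which favours a higher level there, so their direction is no finding.

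Ifit3 (gene 15959, chromosome 19, 34583529 to 34588982), whose product sits in a complex of IFIT proteins that binds viral RNA, ran from 5.94 to 9.12 CPM in XXM (median 7.19) and from 15.2 to 31.1 CPM in XYF (median 27.7). The highest XXM library lay well below the lowest XYF library, which was replicate 1. The means were 7.27 ± 1.34 CPM and 26.1 ± 5.80 CPM (SD, n = 6 each), and the log2 fold change was -1.84 (SE 0.18, edgeR adjusted p = 3.15e-07). Ifit1 (gene 15957, chromosome 19, 34640889 to 34650009), a partner in that complex that recognises foreign RNA ends, ran from 1.59 to 3.16 CPM in XXM (median 2.28) and from 6.52 to 14.2 CPM in XYF (median 10.8), a log2 fold change of -2.19 (SE 0.23, edgeR adjusted p = 1.30e-06). I830012O16Rik, a close relative of Ifit3 that RefSeq names Ifit3b, was at 3.57 ± 0.692 CPM in XXM and 10.2 ± 2.24 CPM in XYF (SD, n = 6 each). Reads can be split between such copies, so the single values of these IFIT genes are uncertain.

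Oasl2 (gene 23962, chromosome 5, 114896934 to 114912245), of the family related to 2'-5' oligoadenylate synthetases, ran from 2.42 to 4.91 CPM in XXM (median 3.53) and from 8.81 to 16.3 CPM in XYF (median 15.3). Its XYF mean was 4.03 times the XXM mean, and its log2 fold change was -2.00 (SE 0.23, edgeR adjusted p = 5.34e-06). Usp18 (gene 24110, chromosome 6, 121245906 to 121270917), which removes ISG15 from proteins and dampens interferon signalling, had the most negative log2 fold change of the list, -2.23 (SE 0.30, edgeR adjusted p = 4.37e-05). It ran from 0.623 to 1.50 CPM in XXM (counts from 13) and from 3.34 to 6.86 CPM in XYF (counts from 61 to 110). Usp18 passed the filter by group through XYF alone, which favours a higher level there, so its direction is no finding. Isg15, the ubiquitin-like protein that Usp18 removes (gene 100038882, chromosome 4, 156199424 to 156200818), was as clearly apart, from 0.848 to 1.50 CPM in XXM and from 2.69 to 3.73 CPM in XYF (log2 fold change -1.52, edgeR adjusted p = 1.78e-05).

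Rsad2, which encodes the antiviral enzyme viperin, was at 1.90 ± 0.689 CPM in XXM and 4.90 ± 1.36 CPM in XYF (SD, n = 6 each; log2 fold change -1.35), with the highest XXM library, at 2.96 CPM, just below the lowest XYF library, at 2.99 CPM. Trim30a was at 2.71 ± 0.787 CPM in XXM and 5.45 ± 1.41 CPM in XYF (SD, n = 6 each). The log2 fold changes of the other 4 called effectors were -1.40 for Oas2, -1.19 for Rtp4, -0.83 for Parp14 and -0.81 for Ifitm3, with edgeR adjusted p from 0.00782 for Rtp4 to 0.0220 for Oas2, and Trim30a was at 0.0225. Among these, 3 calls depended on single libraries. Oas2 was lost without any one of XXM replicates 1, 3, 4 and 6 and XYF replicates 4 and 5 (adjusted p up to 0.0791). Trim30a was lost without any one of XXM replicates 1, 2, 4 and 6 and XYF replicates 2 and 5 (up to 0.0833). Ifitm3 was lost without any one of XXM replicates 2, 4 and 6 and XYF replicate 6 (up to 0.0600). Of the 11 not called, the values ran from -0.17 for Eif2ak2, the double-stranded RNA kinase PKR, to -0.84 for Bst2, which tethers virions.

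Promoter sequence was read for these genes from RefSeq (build GRCm38.p6), in windows from 250 bases before to 50 bases after the annotated start, and 34 of the 51 autosomal genes called lower had one. The core of the interferon-stimulated response element was searched as TTTCNNTTTC on both strands. It was present for 387 of 10909 tested genes with a window (3.55%), for 19 of the 34 called genes (55.9%), for 12 of 17 effector genes (70.6%), for 7 of 7 GTPase genes with a window and for 4 of 14 genes of MHC class I and antigen processing (28.6%). The windows of Oasl2, Irf7, H2-D1 and H2-K1 held no match. These are counts of letters in a window and say nothing about binding in these animals. The stretches below are shown because they carry the match in genes that the comparison turns on. They are written 5' to 3' on the strand of the gene, each with a single match in capitals. The stretches of Ifit1 (from -85), Isg15 (from -78 and from -66) and Gbp3 (from -39) hold further matches that are not marked.
Ifit3: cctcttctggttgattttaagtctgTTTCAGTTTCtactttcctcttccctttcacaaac
Ifit1: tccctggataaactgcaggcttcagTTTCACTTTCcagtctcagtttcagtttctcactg
Isg15: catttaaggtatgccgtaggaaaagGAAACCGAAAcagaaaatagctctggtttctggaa
Gbp3: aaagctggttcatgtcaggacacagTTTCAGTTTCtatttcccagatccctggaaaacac
Gbp2: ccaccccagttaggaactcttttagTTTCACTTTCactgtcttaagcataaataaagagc
Gbp7: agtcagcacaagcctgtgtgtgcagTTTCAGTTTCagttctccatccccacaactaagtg
Igtp: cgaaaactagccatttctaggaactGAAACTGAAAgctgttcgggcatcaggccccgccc
Irgm2: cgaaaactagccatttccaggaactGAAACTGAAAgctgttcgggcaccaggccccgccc
B2m: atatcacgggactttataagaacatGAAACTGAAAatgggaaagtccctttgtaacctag
These stretches lie at chr19:34583382-34583441 (Ifit3, plus strand), chr19:34640760-34640819 (Ifit1, plus), chr4:156200856-156200915 (Isg15, minus), chr3:142559974-142560033 (Gbp3, plus), chr3:142620579-142620638 (Gbp2, plus), chr3:142530258-142530317 (Gbp7, plus), chr11:58199497-58199556 (Igtp, plus), chr11:58214888-58214947 (Irgm2, plus) and chr2:122147523-122147582 (B2m, plus), upstream of or at the start of each gene. The first base of the match in capitals lies at -122 from the start site in Ifit3, -104 in Ifit1, -72 in Isg15, -45 in Gbp3, -59 in Gbp2, -53 in Gbp7, -34 in Igtp, -64 in Irgm2 and -139 in B2m.

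The interferon-inducible GTPases were lower in XXM as well. All 12 members in the table, of 14 in the list, had a negative log2 fold change (median -0.94), and 8 of 12 were called. Over all 13275 autosomal genes, 0.384% were called lower and 6369 had a positive value. Their summed level was between 43.7 and 51.4 CPM in XXM and between 66.7 and 120.2 CPM in XYF. Gbp3 (gene 55932, chromosome 3, 142560052 to 142573212), a guanylate-binding protein of the cluster that coats pathogen vacuoles, had the smallest p of all autosomal genes. It ran from 3.22 to 4.57 CPM in XXM (median 3.49) and from 7.99 to 11.6 CPM in XYF (median 10.4), with a wide gap between the groups. Its means were 3.67 ± 0.494 and 10.1 ± 1.31 CPM (SD, n = 6 each) and its log2 fold change was -1.45 (SE 0.13, edgeR adjusted p = 2.33e-08). Its neighbours on chromosome 3 followed, with 4.17 ± 0.789 CPM in XXM and 8.37 ± 1.44 CPM in XYF for Gbp2 (SD, n = 6 each) and log2 fold changes of -0.76 for Gbp7 and -1.06 for Gbp5, the last of which stood outside the list and was named by its p. On chromosome 5 Gbp6 was at -1.30 and Gbp4 at -1.07.

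Iigp1 (gene 60440, chromosome 18, 60376029 to 60392629), an immunity-related GTPase that disrupts vacuole membranes, ran from 0.981 to 2.45 CPM in XXM (median 1.50) and from 3.92 to 9.17 CPM in XYF (median 6.56). Its log2 fold change was -1.93 (SE 0.23, edgeR adjusted p = 8.39e-06). Igtp and Irgm2, adjacent relatives on chromosome 11 whose stretches above differ at few bases, had medians of 4.10 and 4.63 CPM in XXM against 8.01 and 7.64 CPM in XYF. Their log2 fold changes were -0.88 and -0.75 (edgeR adjusted p = 0.00152 and 0.00876). For each of the 8 called GTPases every XXM library lay below every XYF library, which held for 0.460% of autosomal genes. The 8 were called on these same libraries, so this describes them and tests nothing. Gbp9 (-0.62), Irgm1 (-0.44), Tgtp1 (-0.42) and Mx2 (-1.44) were not called. Mx2, a dynamin-like restriction factor, was the first autosomal gene past the threshold, at 0.739 ± 0.410 CPM in XXM and 2.01 ± 0.582 CPM in XYF (SD, n = 6 each; edgeR adjusted p = 0.0546).

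**Figure D3:**
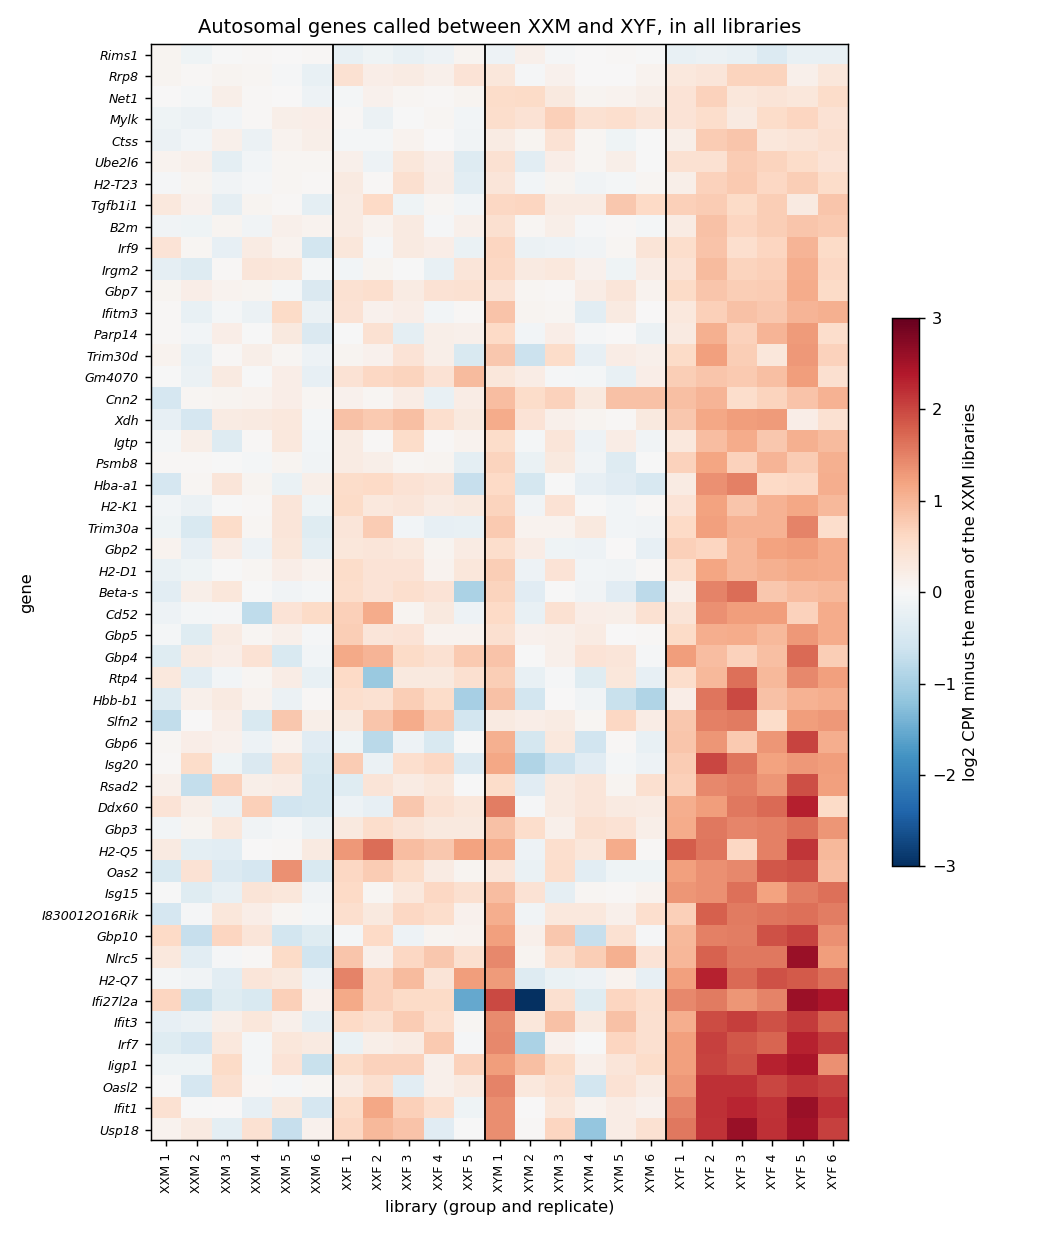
Of the 52 autosomal genes called between XXM and XYF, 51 are drawn (rows) in all 23 libraries (columns), as log2 CPM minus the mean of the XXM libraries, with the colour scale limited to 3 in each direction. The genes were chosen on XXM and XYF, so their contrast is no finding of its own; XYF replicate 1 is paler than the other XYF libraries for most genes, and XYM replicate 1 is darker than the other XYM libraries.

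Antigen presentation by MHC class I formed the third group. Of its 16 members in the table, 15 were lower in XXM (median log2 fold change -0.63) and 7 were called, all lower. Over all 13275 autosomal genes, 0.384% were called lower and 6369 had a positive value. H2-D1 (gene 14964, chromosome 17, 35263094 to 35267497), a classical class I heavy chain, ran from 31.4 to 41.4 CPM in XXM (median 36.8) and from 51.7 to 82.5 CPM in XYF (median 77.9). Every XYF library exceeded every XXM library, and XYF replicate 1 was far below the other 5. Means were 36.4 ± 3.74 and 73.7 ± 11.2 CPM (SD, n = 6 each), a log2 fold change of -1.02 (SE 0.13, edgeR adjusted p = 2.53e-05). H2-K1, the other classical heavy chain, ran from 23.2 to 33.5 CPM in XXM and from 34.9 to 60.3 CPM in XYF (log2 fold change -0.95, SE 0.13, edgeR adjusted p = 6.10e-05).

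B2m (gene 12010, chromosome 2, 122147687 to 122153082), the light chain that all class I molecules share and a single-copy gene, ran from 65.9 to 79.7 CPM in XXM (median 71.9) and from 86.2 to 132 CPM in XYF (median 123). Its log2 fold change was -0.70 (SE 0.09, edgeR adjusted p = 4.37e-05), and its XYF mean was 1.62 times the XXM mean without any overlap of libraries. The class I transactivator Nlrc5 was at -1.74 (edgeR adjusted p = 2.97e-04), with 0.999 ± 0.316 CPM in XXM and 3.37 ± 1.48 CPM in XYF (SD, n = 6 each). The immunoproteasome subunit Psmb8 was at -0.93, the non-classical H2-T23 at -0.61 and the low H2-Q7 at -1.91. Nlrc5 and H2-Q7 passed the filter by group through XYF alone, which favours a higher level there, so their direction is no finding. The peptide transporter subunits Tap1 (-0.65) and Tap2 (-0.19), the immunoproteasome subunits Psmb9 (-0.90) and Psmb10 (-0.22) and the peptidase Erap1 (0.08) were not called. Heavy-chain genes are near-identical to each other in places, so their single values are uncertain.

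Upstream of these genes the picture was uneven. Of 17 genes of interferon receptors and signalling tested, 3 were called, all lower in XXM, against 0.384% of autosomal genes called lower. The list's median was -0.10. Irf7, which amplifies interferon production, ran from 1.24 to 2.30 CPM in XXM and from 4.35 to 9.37 CPM in XYF (log2 fold change -1.94, SE 0.27, edgeR adjusted p = 9.00e-05), and its libraries did not overlap between the groups. Irf9, a transcription factor of the interferon response, was at -0.67 (edgeR adjusted p = 0.0403), and its call was lost without any one of XXM replicates 2 to 6 and XYF replicates 2, 4, 5 and 6 (adjusted p up to 0.133). The receptor and kinase genes had values near 0: Ifnar1 0.02, Ifnar2 0.06, Ifngr1 -0.12, Ifngr2 0.06, Jak1 0.00, Jak2 0.00 and Tyk2 -0.10, none of them called. Stat2 was at -0.15 and Irf1 at -0.23, also not called.

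Markers of blood and of other cell types were set beside the interferon genes. Of 4 haemoglobin and red cell genes in the table, of 5 in the list, 3 were called lower in XXM and all 4 had a negative value (median -1.01). Over all genes tested, 0.501% were called in either direction. The list's summed level was between 127 and 215 CPM in XXM and between 196 and 509 CPM in XYF, and only XYF replicate 1, at 196 CPM, lay within the XXM range. Hba-a1, an alpha-globin gene with a near-identical copy, ran from 48.6 to 88.3 CPM in XXM (median 72.4) and from 81.8 to 195 CPM in XYF (median 125; log2 fold change -0.95, edgeR adjusted p = 0.0408). Beta-s, the record of the beta-globin gene of this strain, was at -1.07 (edgeR adjusted p = 0.0295). X-linked Alas2, the haem synthesis enzyme of red cell precursors, was at -1.24 (edgeR adjusted p = 0.0306). Leaving out any one of XXM replicates 1, 2, 4, 5 and 6 and XYF replicates 2 and 3 ended all 3 calls, with adjusted p up to 0.153 for Hba-a1, 0.112 for Beta-s and 0.128 for Alas2. Leaving out XYF replicate 6 ended the call of Hba-a1 too. With the mean log2 CPM of these haemoglobin and red cell genes as a covariate, an alternative chosen after the data were seen, 15 autosomal genes were called lower, all of them among the 51. They included Gbp3 (log2 fold change -1.21, edgeR adjusted p = 2.43e-05), Ifit3 (-1.31, 1.56e-04), Ifit1 (-1.63, 0.00237) and H2-D1 (-0.68, 0.0280). Genes that lost their call included B2m (-0.48, edgeR adjusted p = 0.0501), H2-K1 (-0.66, 0.0738), Irf7 (-1.38, 0.0743) and Nlrc5 (-1.46, 0.110). Rsad2 (-1.07, 0.315), Psmb8 (-0.57, 0.477) and Ctss (-0.22, 0.999) lost theirs too. In all, 26 named genes were called with this covariate, against 54 without it. Of the lists, 6 of 23 effectors, 4 of 12 GTPases and 1 of 16 MHC class I genes were then called lower. Whether blood content has a part in the other calls was not tested beyond this.

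Microglia, the resident immune cells of the brain, had 14 of 14 markers in the table. Of their log2 fold changes 9 were below 0, with a median of -0.12. Of the 14, 1 was called, where 0.501% of all genes tested were called in either direction. That gene was Ctss, the lysosomal protease cathepsin S, which also processes antigen. It ran from 76.6 to 97.8 CPM in XXM (median 87.9) and from 98.8 to 155 CPM in XYF (median 117), barely without overlap (log2 fold change -0.51, SE 0.10, edgeR adjusted p = 0.00925). The markers that define microglia in the resting brain were not called: Cx3cr1 was at 0.02, P2ry12 at 0.11, Tmem119 at -0.20 and Csf1r at -0.13. All markers not called ran from -0.33 for Siglech to 0.24 for Gpr34. The summed microglia level was between 514 and 629.5 CPM in XXM and between 557 and 716 CPM in XYF, with overlap. Complement genes, of which microglia and astrocytes make several, had 0 of 12 called, the nearest being C1qb (-0.40, edgeR adjusted p = 0.134) and C4b (-0.38, 0.137). Astrocyte (11 genes, median 0.08), oligodendrocyte (12, 0.06), endothelial (10, -0.02) and mural cell (10, -0.04) lists had 0 genes called, and their summed levels overlapped between the groups. In bulk tissue fewer cells of a type and less RNA per cell cannot be told apart.

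Since Ttr was high in more XXM than XYF libraries, the genes were read within each Ttr range. Among libraries under 500 CPM (2 XXM, 5 XYF) every XXM library lay below every XYF library for 49 of the 51 autosomal genes called lower, against 2.74% of all autosomal genes. Among those above it (4 XXM, 1 XYF) this held for 49 of 51 as well, against 22.6%. The 51 genes were chosen on these same libraries, so the counts describe them and test nothing. When the fit used only the 16 libraries of all groups with Ttr under 500 CPM, a choice made after the data were seen, 30 autosomal genes were called, all lower in XXM and 26 of them among the 51. The effectors then had 11 of 23 called, the GTPases 5 of 12 and the MHC class I genes 6 of 16. With Ttr as a covariate 79 autosomal genes were called, 77 lower, and all 52 were among them.

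A pair of genes of actin contractility was also called lower in XXM. Mylk (gene 107589, chromosome 16, 34784950 to 35002434), the kinase that switches on myosin light chains, ran from 19.3 to 25.1 CPM in XXM (median 21.6) and from 26.6 to 34.2 CPM in XYF (median 30.6). Its log2 fold change was -0.47 (SE 0.08, edgeR adjusted p = 6.06e-04). Cnn2 (gene 12798, chromosome 10, 79988600 to 79995400), the actin-binding protein calponin 2, ran from 4.24 to 6.99 CPM in XXM (median 6.41) and from 8.79 to 12.6 CPM in XYF (median 11.2; log2 fold change -0.85, SE 0.13, edgeR adjusted p = 2.52e-04). Neither gene had overlapping libraries (0.460% of autosomal genes had every XXM library below every XYF library). Both were called on these same libraries, so this describes them and tests nothing. Mylk and Cnn2 were the only called members of 18 genes of the actin cytoskeleton and of targets of serum response factor. Of the 18, 14 had a negative value (median -0.15). The share called over all genes tested was 0.501%, in either direction. Flna, filamin A, was at -0.60 and Actb, beta-actin, at -0.19, neither called. Mylk and Cnn2 lost their calls when only libraries with Ttr under 500 CPM were fitted (0.260 and 0.0907, edgeR adjusted p), with values of similar size. With the haemoglobin score as a covariate Mylk lost its call (-0.45, edgeR adjusted p = 0.0743) and Cnn2 kept it (-0.82, edgeR adjusted p = 0.0272). The serum response factor motif, the CArG box, was searched by that name on both strands. It was present in the promoter windows of 5 of 17 genes of the list (29.4%) and of 1.52% of all genes with a window, and among the 34 genes called lower with a window only Cnn2 held it (2.94%). The window of Mylk held no CArG box but 1 match to the interferon core, TTTCCTTTTC, at -207. The stretch of Cnn2 that holds it, with the match in capitals from -56, lies on the plus strand at chr10:79988519-79988578.
Cnn2: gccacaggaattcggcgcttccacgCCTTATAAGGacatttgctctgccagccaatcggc

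The lone autosomal gene called higher in XXM was 1 of 2 records of Rims1 (chromosome 1, 22288422 to 22432843), a scaffold of the presynaptic active zone. It ran from 76.3 to 87.9 CPM in XXM (median 84.8) and from 62.6 to 73.6 CPM in XYF (median 72.0), without overlap, and its log2 fold change was 0.24 (SE 0.06, edgeR adjusted p = 0.0476). The other Rims1 record was at 0.22 (edgeR adjusted p = 0.372). Leaving out any library but XXM replicate 2 ended the call (adjusted p at least 0.0591 in each case). The count of autosomal genes called higher was itself unsteady: it was 10 without XYF replicate 5, between 0 and 1 without any other library, 7 with DESeq2 and with limma voom under sample quality weights, and 0 with relative log expression size factors and with libraries thinned to the lowest total. Just outside the threshold, after Mx2, came Sag, a photoreceptor arrestin, whose value of -3.98 (edgeR adjusted p = 0.0570) rested on 186 CPM in XYF replicate 4 against at most 2.68 CPM in the other XYF libraries. Then came Lgr6, a receptor of the Wnt pathway, at 0.63 (edgeR adjusted p = 0.0594), with 2.54 ± 0.268 CPM in XXM and 1.63 ± 0.387 CPM in XYF (SD, n = 6 each).

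A further 15 called autosomal genes, all lower in XXM, were outside the naming rule and are named after their values were seen. Several are themselves interferon-inducible: Ifi27l2a (log2 fold change -1.95), the guanylate-binding Gbp10 (-1.54), the helicase-like Ddx60 (-1.46), the exonuclease Isg20 (-1.44), Slfn2 (means of 1.30 CPM in XXM and 2.95 CPM in XYF), Trim30d (-0.88) and Ube2l6 (-0.55), the conjugating enzyme for ISG15. Of these Ifi27l2a, Gbp10, Ddx60 and Isg20 passed the table's filter through XYF alone, which favours a higher level there, so their direction is no finding. H2-Q5 (-1.65) is a class I gene, Gm4070 (-0.84) a predicted gene and Hbb-b1 (-1.23) a beta-globin gene. The rest were Cd52 (-1.05), a leukocyte surface protein, Xdh (-0.89), xanthine dehydrogenase, Tgfb1i1 (-0.65), a focal adhesion protein, Net1 (-0.45), a guanine nucleotide exchange factor, and Rrp8 (-0.42).

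The sex chromosome genes were read apart from the autosomes, since XXM and XYF animals differ in their number. Members of a list of X-linked genes that have Y-linked partners or escape X inactivation were higher in XXM: all 7 in the table, of 10 in the list, had a positive log2 fold change (median 0.32) and 4 were called. Over all X-linked genes, 2.67% were called in either direction. Eif2s3x (gene 26905, X chromosome, 94188709 to 94212651), a subunit of the translation initiation factor eIF2, ran from 207 to 251 CPM in XXM and from 127 to 153 CPM in XYF (log2 fold change 0.66, SE 0.06, edgeR adjusted p = 1.19e-08). Kdm6a, a histone H3 demethylase, ran from 51.6 to 58.9 CPM in XXM and from 26.1 to 40.2 CPM in XYF (0.66, SE 0.08, edgeR adjusted p = 6.16e-06). Both separated the groups. The libraries met or crossed for the demethylase Kdm5c (0.39, edgeR adjusted p = 0.00276) and the RNA helicase Ddx3x (0.32, edgeR adjusted p = 0.0306). The Ddx3x call was lost without any one of XXM replicates 3, 5 and 6 and XYF replicates 2, 5 and 6 (adjusted p up to 0.114). Not called were 5530601H04Rik (0.32), Usp9x (0.16) and Mid1 (0.12), the last of which crosses the pseudoautosomal boundary. Xist was higher in XXM by a fitted log2 fold change of 6.36 (edgeR adjusted p = 9.64e-06), or 9.47 without XYF replicate 4 (edgeR adjusted p = 3.54e-19), and its level is uncertain because the antisense gene Tsix overlaps it and whether counting used strand is not stated.

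Far along the X chromosome, close to its distal end, a run of neighbouring genes was lower in XXM, and so higher in XYF although these animals have a single X chromosome. All 7 members of this block in the table were called lower (2.67% of X-linked genes were called in either direction). Their median log2 fold change was -0.97, and the libraries of XXM and XYF overlapped for none of them. The share of autosomal genes with every XXM library below every XYF library was 0.460%. The 7 were called on these same libraries, so the lack of overlap describes them and tests nothing. Msl3 (gene 17692, X chromosome, 168654118 to 168673902), a chromodomain protein of a histone acetyltransferase complex, ran from 20.7 to 24.6 CPM in XXM (median 22.7) and from 40.5 to 47.9 CPM in XYF (median 45.7). The XYF mean was 1.99 times the XXM mean, a log2 fold change of -0.99 (SE 0.06, edgeR adjusted p = 3.56e-11), the smallest adjusted p outside the Y chromosome. Hccs, which attaches haem to cytochrome c, had a mean ratio of 1.97 (-0.97, SE 0.07, edgeR adjusted p = 9.78e-10).

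Tlr7 (gene 170743, X chromosome, 167304931 to 167330528) encodes an endosomal receptor that senses single-stranded RNA and leads to interferon production. It ran from 3.42 to 5.35 CPM in XXM (median 4.18) and from 6.87 to 11.1 CPM in XYF (median 8.87). Its mean ratio was 2.11 and its log2 fold change -1.07 (SE 0.14, edgeR adjusted p = 4.37e-05). The others were Tmsb4x, the actin-sequestering thymosin beta 4 (-0.79), Prps2, a phosphoribosyl pyrophosphate synthetase (-0.70), Frmpd4, a synaptic scaffold (-0.81), and Arhgap6, a GTPase-activating protein (-1.07, edgeR adjusted p = 0.0306). The Arhgap6 call was lost without any one of XXM replicates 1, 2, 3, 4 and 6 and XYF replicates 4 and 5 (adjusted p up to 0.107). The block runs from 167207094 to 169320343 and holds ranks 478 to 484 of the 486 X-linked genes in order along the chromosome. Mid1, beyond it, and Egfl6 (0.56) and Tceanc (0.27), before it, were not called. As background, some FCG colonies are known to carry a copy of a distal X segment that includes Tlr7 on the Y chromosome. From which chromosome these transcripts came was not tested. The eighth X-linked gene called lower was Alas2, given with the haemoglobin genes.

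**Figure D4:**
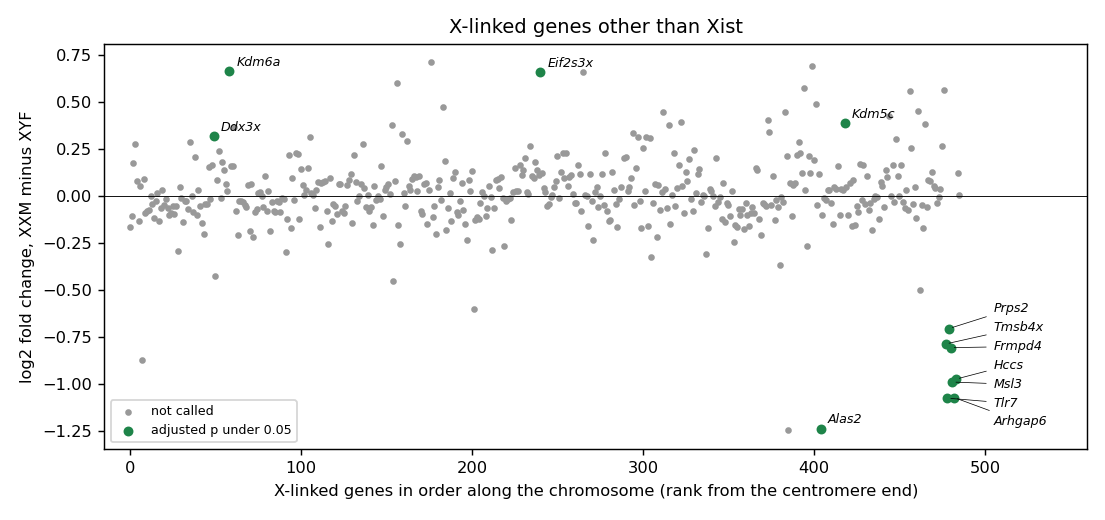
Log2 fold change, XXM minus XYF (vertical axis), of X-linked genes other than Xist in order along the chromosome (horizontal axis, rank from the centromere end), with called genes in green. The 7 genes of the distal block lie together between -0.70 and -1.07, while the called genes with Y-linked partners lie above 0.

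How far the autosomal differences belong to the crossed pairing was asked by setting it beside the other pairing, XYM minus XXF, which shares no library with it and also differs in both gonad and sex chromosomes. In that pairing 18 genes were called (0.131%), of which 6 were autosomal. Over the 51 autosomal genes lower in XXM than in XYF, its median log2 fold change was 0.00, 25 were negative, and 1 was called, Mylk (0.54, edgeR adjusted p = 6.55e-04). The values of the 51 ran from -0.81 to 0.64 there. Ifit3 was at 0.28, Ifit1 at -0.13, Usp18 at 0.03, Gbp3 at 0.11 and B2m at -0.02. Interferon genes further from 0 lay on both sides, with H2-Q7 at -0.81, H2-Q5 at -0.63 and Gbp4 at -0.49, and with Gbp6 at 0.44, Gbp10 at 0.40 and Oasl2 at 0.36, none of them called. Across all 13275 autosomal genes, which do not count as replicates, the pairings correlated at 0.17 (Pearson) and 0.19 (Spearman), a description without a test.

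The difference between the pairings was tested itself; it equals 2 times the XX-minus-XY effect averaged over gonads. With edgeR 39 genes were called (0.283%), 22 of them autosomal, and 19 of the 51 were among these. For the distal block the sign turned with the sex chromosomes, XX or XY. Presence of a Y chromosome and number of X chromosomes change together here and cannot be told apart. Msl3 was at 0.92, Tlr7 at 1.06 and Arhgap6, not called there, at 0.81 in XYM minus XXF. Their edgeR adjusted p for the difference were 5.08e-14, 2.79e-07 and 0.00631. Mylk (1.79e-06) and Cnn2 (1.74e-05) behaved in the same way. Ifit3 (1.74e-05), Gbp3 (6.67e-06), Oasl2 (1.79e-04) and Ifit1 (0.00170) were called as well, whereas H2-D1 (0.0541) and H2-K1 (0.0989) were not. The sum of the pairings, 2 times the testes-minus-ovaries effect averaged over sex chromosomes, called 22 genes (0.160%), all autosomal, and again 19 of the 51, Gbp3 (9.79e-04), Ifit1 (0.00158), H2-D1 (0.00331) and B2m (0.0129) among them. Of the 51, 10 were called by both and 23 by neither. The 51 were chosen on the libraries of 1 of the pairings, which favours their call in the difference and in the sum. The interaction of gonad and sex chromosomes called 0 genes with edgeR, with 444 at an unadjusted p under 0.05.

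**Figure D5:**
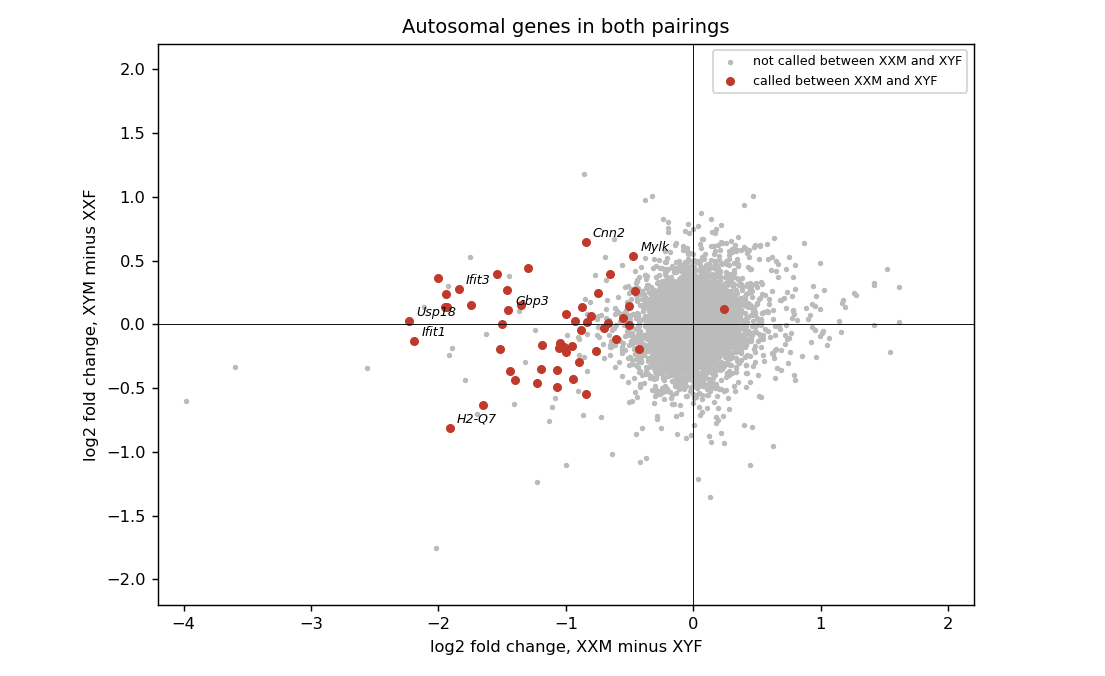
Log2 fold change of each autosomal gene in XXM minus XYF (horizontal axis) and in XYM minus XXF (vertical axis), which share no library, with the genes called in the former in red. Most called genes lie far to the left and near 0 on the vertical axis; Mylk and Cnn2 lie above 0 on it.

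The crossed contrast can be split into steps that change 1 factor each, and since each step shares libraries with it, their values are only set side by side. For Ifit3 the log2 fold change was -0.49 for XXM minus XXF and -1.35 for XXF minus XYF, or -0.77 for XXM minus XYM and -1.07 for XYM minus XYF. For Gbp3 the values in the same order were -0.35, -1.10, -0.46 and -0.99. For H2-D1 they were -0.36, -0.66, -0.18 and -0.84. For Ifit3, Gbp3 and H2-D1 both steps that end at XYF were called and both steps that start from XXM were not. This did not hold for all of the 51 genes. Of these, 22 were called for XXF minus XYF and 28 for XYM minus XYF. Many were called in neither step, among them Gbp4, Nlrc5, H2-Q5, Parp14, Ifitm3, Trim30a, Isg20 and Irf9. XXM minus XXF called 0 of the 51 and XXM minus XYM called 2. The group means rose in the order XXM, XXF, XYM and XYF for 18 of the 51 genes and in the order XXM, XYM, XXF and XYF for 26. Ifit1 was at 2.34 CPM in XXM, 3.16 in XYM, 3.54 in XXF and 10.7 in XYF, and B2m at 72.4, 78.6, 80.1 and 118 CPM. The groups other than XYF lay close together for both. Mylk was instead split by sex chromosomes, at 22.1 CPM in XXM and 21.4 in XXF against 31.1 in XYM and 30.6 in XYF. Across all genes XXM minus XXF called 0 genes with edgeR (1061 at an unadjusted p under 0.05), and XXM minus XYM called 16 (0.116%), of which 2 were autosomal, Mylk and Cnn2. XXF minus XYF called 40 (0.291%), of which 26 were autosomal, and XYM minus XYF called 31 (0.225%), of which 30 were autosomal.

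The remaining lists, which cover hippocampal and hormonal functions, had 0 members called. Steroid hormone receptors and synthesis genes had 8 of 9 members above 0 (median 0.12), the nearest to the threshold being Nr3c1, the glucocorticoid receptor (0.19, edgeR adjusted p = 0.143), with Esr1, an oestrogen receptor, at -0.08. Glucocorticoid-responsive genes had 11 of 12 members below 0 (median -0.25; Nfkbia -0.35, edgeR adjusted p = 0.345; Sgk1 -0.52, 0.398), and activity-induced immediate early genes 13 of 14 (median -0.25; Fos -0.47, Arc -0.28). None of these values passed the test. Circadian clock genes had a median of -0.08 (Dbp -0.48, edgeR adjusted p = 0.241), hippocampal neuron markers 0.02 (Wfs1 0.34, 0.334), glutamate receptors and scaffolds 0.07 (Unc13c 0.51, 0.236), interneuron and GABA genes -0.01, thalamus markers 0.04 and cholesterol synthesis genes -0.02. The glutamate list was 5 of 15 below 0 and the hippocampal neuron list 5 of 15.

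Depth sets how firmly the lowest genes can be read. Isg15 rested on counts of 22 to 41 per library in XXM and 32 to 88 in XYF, and H2-Q7 on 13 to 25 and 33 to 76. Because XXM libraries were deeper, the comparison was also run on libraries thinned to the lowest total, which called 48 autosomal genes, and with the library total as a covariate, which called 39. With that covariate the effectors had 8 of 23 called and the GTPases 7 of 12.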

How the data were processed

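RNA of 23 hippocampi was sequenced as ribosome-depleted, strand-specific libraries, per the labels' protocols. The authors deposited 1 table of estimated counts per gene and of normalized values on a log2 scale. Per the file headers, a gene was kept where its raw value reached 20 in 100% of the libraries of any of the 4 groups. The submitters' processing notes name mm10 and DESeq without a role. Which aligner and counting program were run, and whether counting used strand, was not given in the sources used here. The deposited log2 values equal the log2 count plus a constant per library and per gene to within 1.62e-06, and served for an alternative test.

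Counts were rounded to whole numbers and scaled by edgeR's trimmed mean of M-values (TMM). filterByExpr removed 0 genes. Quasi-likelihood tests were run in edgeR (version 4.0.16, R version 4.3.3) on 23 libraries, fitting the 4 group means, so that all groups share 1 estimate of the spread. The contrast was XXM minus XYF, 2-sided, with Benjamini-Hochberg adjustment over 13766 genes. CPM used the total times its normalization factor, and log2 CPM a prior count of 2. SE was taken as the fold change's size on the log2 scale divided by the root of its F statistic. Replicate numbers follow accession order and only name libraries. No pair of libraries of a group agreed within sampling noise (lowest chi-square per gene 7.45). The animals were separate, and p-values measure the spread between them. The steps were tested on simulated data. Alternatives used DESeq2 (version 1.42.0), limma (version 3.58.1), other filters and covariates, and left out each library in turn.

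Named genes were Ttr, the label checks, the X-linked escape and distal block genes, for either direction the called autosomal genes of smallest p (up to 15) and other X-linked ones (up to 5), each called member of 25 gene lists (otherwise the 3 with the smallest p), the 5 most abundant choroid plexus genes, up to 5 genes per direction for the difference of the pairings, and the 3 autosomal genes next to the threshold. The lists hold 334 entries, of which 308 are in the table. The members and lists were chosen with earlier results of these data known, so list counts are descriptions. Some genes are not reported here.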

Additional observations from a re-analysis of the deposited data

Results flagged for a closer look

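In 76 pairs of a named gene and a group of 6 libraries, the highest or the lowest library was set against the range of its group, and 11 pairs (14.5%) had a library that stood apart by Dixon's ratio. Chance gives about 1 in 20 groups, and genes of 1 library are not independent. In XYF replicate 1 the interferon genes Oasl2 (8.81 CPM, next lowest 14.4), I830012O16Rik (5.86, next 10.3) and H2-D1 (51.7, next 73.0) were far below the other XYF libraries, though above all XXM libraries. XYF replicate 4 held 94.1 CPM of Xist (next highest 2.79), 186 CPM of Sag (next 2.68) and the lowest level of the Rims1 record, 62.6 CPM (next 71.6). XYF replicate 5 had the highest Ttr, 2927 CPM (next 145), and the highest Prps2, 93.5 CPM (next 74.6). XYF replicate 6 had the lowest 5530601H04Rik, 6.26 CPM (next 9.01). In XXM, replicate 6 had the lowest Kdm6a, 51.6 CPM (next 56.5), and replicate 5 the highest H2-K1, 33.5 CPM (next 26.7). The causes were not tested.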

How the results depend on the processing

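The direction of the comparison held under the 26 alternatives run, with 1 exception among the 54 named genes called: Hba-a1 was at 0.01 with the haemoglobin score as a covariate, a score it belongs to. Of the 54, 22 were called under all 26, and Xist under the 25 that gave it an adjusted p (DESeq2 gave none). Autosomal calls rose from 52 to 85 with DESeq2 and 79 with Ttr as a covariate, and calls for the difference of the pairings from 22 to 42 and 49. Alternatives chosen after seeing the data gave fewer: with only libraries of Ttr under 500 CPM, which fits fewer samples, 43 genes were called, 30 of them autosomal, and 35 named genes, and with the haemoglobin score 28, 15 and 26. The cause was not tested. Leaving out each of the 12 libraries gave 53 to 83 genes, 38 to 66 autosomal, 14 to 17 on the X and Y chromosomes, 44 to 56 named, and 18 to 31 for the pairings. No paired analysis was possible because the replicate numbers follow accession order and pair no animals. Depth limits genes near 1 CPM, such as Oas2, which had 9 counts in its lowest XXM library.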

Other observations

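The 51 autosomal genes called lower in XXM varied within groups as well. As the median over these genes of log2 CPM minus the XXM mean, XYF replicate 1 stood at 0.71, while the other 5 XYF libraries stood between 1.03 and 1.25. XYF replicate 1 was the lowest XYF library for 30 of the 51 genes. Among animals with testes, XYM replicate 1 stood at 0.73 and the other 5 XYM libraries between -0.04 and 0.24. XXF libraries stood between 0.08 and 0.44. The genes were chosen on XXM and XYF, so the distance between these groups is no result, and the values of XXF and XYM libraries are descriptions. XYM replicate 1 was also the XYM library with the highest Ttr, 2386 CPM, whereas XYF replicate 1 had the lowest Ttr of its group.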
